A study of Rattus norvegicus with 6 samples.

Results

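The genes described here are 8 of the 40154 genes in the deposited count table: Parp9, its partner Dtx3l, and Parp10, Parp11, Parp12 and Parp14, which are linked to the interferon response, with Parp1 and Parp2, which act in DNA repair, as the contrast. They were taken by gene symbol. All 8 had enough reads to be among the 14852 genes tested. Messenger RNA was sequenced from atrial fibroblasts of Sprague-Dawley rats aged 1 to 3 days, grown in medium with 10% fetal bovine serum and collected 24 h after transfection with a small interfering RNA. The control group received a non-targeting siRNA (si-NC) and the other group an siRNA against Gpd1l (si-GPD1L), with 3 libraries in each. The labels give both groups the same strain, tissue and treatment entry ("Atrial differentiation", which is not explained), and there were no untransfected cells among the libraries. The labels do not say whether the libraries of a group came from separate cultures or animals, or whether the digit ending each si-GPD1L name marks a different siRNA. The p-values therefore measure only the spread between these libraries, which may be technical.

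PARPs are enzymes that transfer ADP-ribose from NAD+ to proteins and nucleic acids. Parp1 and Parp2 sense DNA strand breaks and build long poly(ADP-ribose) chains there, whereas most other family members add single ADP-ribose units or none. Several of those others are known as interferon-stimulated genes, which are switched on when interferon binds its receptor. PARP9 and DTX3L form a stable complex, in which DTX3L is an E3 ubiquitin ligase of the Deltex family, and are encoded by neighbouring genes that point away from each other.

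Library totals ran from 16892255 to 20149732 counts. A normalized count is a count scaled to the mean library size after the trimmed mean of M-values (TMM) correction. The target was checked first. The normalized counts of Gpd1l were 262, 332 and 313 in si-NC and 220.3, 208 and 302 in si-GPD1L, so that si-GPD1L replicate 3 lay within the range of the control. The log2 fold change of Gpd1l was -0.31 ± 0.15 (SE, the standard error of the fit, n = 3 in each group; adjusted p = 0.234, edgeR's quasi-likelihood test). The cells carried the markers of fibroblasts, whose 12 genes summed to between 34522 and 45133 TPM over all libraries.

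Of the 6 interferon-linked genes, 5 rose in si-GPD1L: Dtx3l 7.10-fold, Parp14 5.63-fold, Parp9 5.36-fold, Parp12 4.74-fold and Parp10 2.95-fold. Parp11 did not pass the test, and neither did Parp1 or Parp2, the DNA-repair enzymes. All 5 were past both thresholds set here, an adjusted p under 0.05 and a log2 fold change over 1, which 1.48% of all genes tested were in this direction. The values of the groups did not overlap for these 5 genes, and they were higher without overlap in si-GPD1L for 15.1% of all genes tested. The median log2 fold change was 2.33 over the 6 interferon-linked genes and 0.051 over Parp1 and Parp2, against -0.0049 over all genes tested. In RNA from whole cultures, more cells with a transcript and more transcript per cell cannot be told apart.

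**Figure D1:**
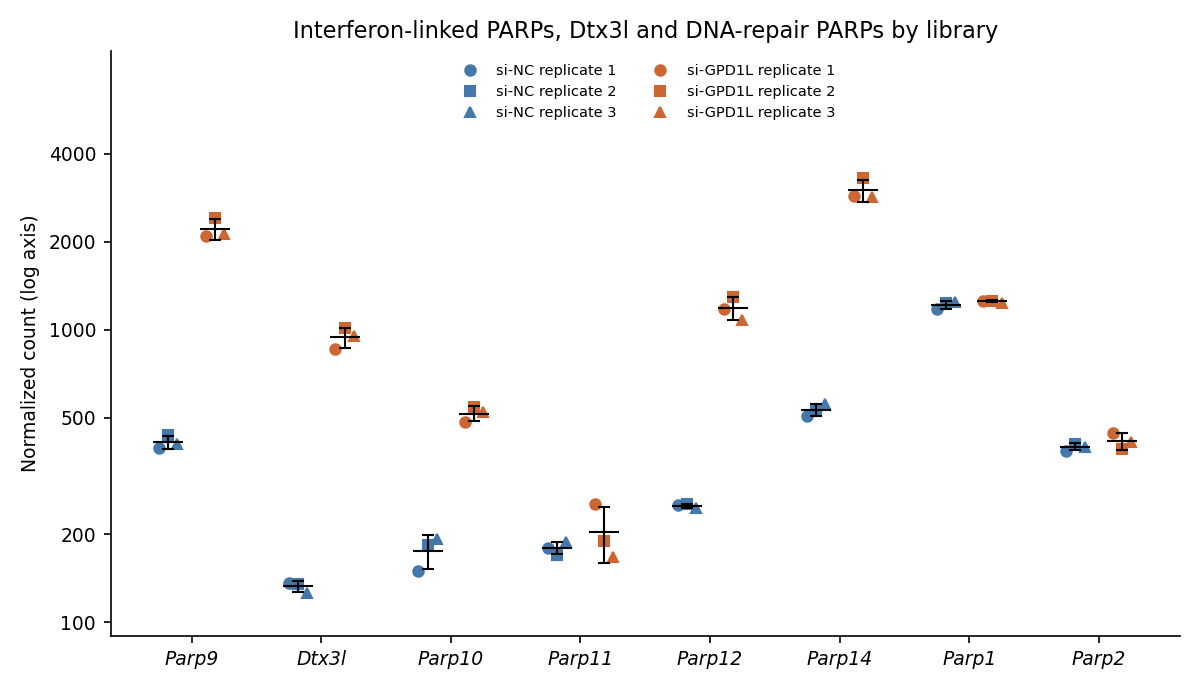
Normalized counts of the 8 genes in each library on a log axis, with si-NC in blue and si-GPD1L in orange and the replicate number given by the shape of the point. The long black dash is the mean and the bars are the SD of 3 libraries; in Parp9, Dtx3l, Parp10, Parp12 and Parp14 the 3 si-GPD1L libraries lie above the 3 si-NC libraries, while in Parp11, Parp1 and Parp2 the groups overlap.

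Markers of other cell types were measured in the same libraries. Endothelial markers moved in the same direction as the 5 genes: 4 of the 9 tested (Pecam1, Cdh5, Tie1 and Plvap) rose with an adjusted p under 0.05, as did 4.03% of all genes tested, and the 10 listed markers summed to between 39.3 and 50.4 TPM in si-NC and between 63.5 and 68.5 TPM in si-GPD1L. None of the 10 endothelial markers was at 0 in all libraries, and the part of these cells in the rise of the PARP genes was not tested. None of the 12 macrophage markers passed edgeR's quasi-likelihood test (1 had an unadjusted p under 0.05), with summed levels of 226 to 263 TPM in si-NC, against 215 to 313 TPM in si-GPD1L. Of the 10 lymphocyte markers, Cd3e, Cd3d, Ms4a1, Nkg7 and Klrd1 had 0 counts in every library, 1 was tested and did not pass, and the list summed to at most 3.39 TPM. None of 9 cardiomyocyte markers passed edgeR's quasi-likelihood test (5 had an unadjusted p under 0.05), at 2581 to 2720.5 TPM in si-NC and 2368 to 2531 TPM in si-GPD1L. An unadjusted p under 0.05 was common in that test, with at least 3223 of the 14852 genes tested reaching it. Among the 8 smooth muscle and pericyte markers, Cspg4 rose and Des fell, with log2 fold changes of 0.80 ± 0.12 and -0.35 ± 0.084 (SE). Their adjusted p-values were 0.0013 and 0.028 in edgeR's quasi-likelihood test. Among the 12 fibroblast markers Dcn and Lum fell, with -0.66 ± 0.14 and -0.77 ± 0.14 (SE, adjusted p = 0.013 and 0.0058, same test). The other 6 and 10 did not pass, and 6.36% of all genes tested passed in either direction.

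Parp9 encodes a PARP with macrodomains, modules that bind ADP-ribose. Its normalized counts were 394, 436 and 408 in si-NC and 2090.3, 2420.5 and 2125 in si-GPD1L. The lowest si-GPD1L library was thus far above the highest control library, and the groups did not overlap. The mean rose from 412 ± 21.6 to 2212 ± 181 (SD, n = 3 in each group), a log2 fold change of 2.42 ± 0.085 (SE; adjusted p = 6.66e-10, edgeR's quasi-likelihood test).

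Dtx3l had the largest fold change of the 8 genes. Its normalized counts were 136, 135 and 126 in si-NC and 859, 1011 and 954 in si-GPD1L. No library of one group came near the other. The mean rose from 133 ± 5.82 to 941 ± 76.6 (SD, n = 3 in each group), a log2 fold change of 2.83 ± 0.101 (SE; adjusted p = 7.65e-10, edgeR's quasi-likelihood test).

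Parp14, the largest of the macrodomain PARPs and known as a co-activator in interleukin-4 signalling, had the most reads of the interferon-linked genes. Normalized counts of Parp14 were 509, 529 and 557 in si-NC and 2859, 3295 and 2835 in si-GPD1L. The groups were again clearly apart. The log2 fold change was 2.49 ± 0.084 (SE, n = 3 in each group; adjusted p = 4.54e-10, edgeR's quasi-likelihood test), the smallest p-value of the 8 genes.

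Parp12 encodes a zinc-finger PARP that restrains the translation of viral RNA. In si-NC its normalized counts were 252, 253 and 246, and in si-GPD1L they were 1182, 1296 and 1079. The control libraries were close together, and all si-GPD1L libraries were above them. The log2 fold change was 2.24 ± 0.092 (SE, n = 3 in each group; adjusted p = 3.19e-09, edgeR's quasi-likelihood test). The end of Parp12 overlaps Tbxas1, a gene on the opposite strand, by 11099 bases in the deposited coordinates. Tbxas1 had at most 52 counts in a library, with a log2 fold change of -0.13 ± 0.27 (SE; adjusted p = 0.819). The strand setting of the counting is not given in the sources used here, so reads of the 2 genes in the shared stretch cannot be told apart.

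Parp10, a mono-ADP-ribosyltransferase with an RNA recognition motif, rose by less. Its normalized counts were 149, 184 and 192 in si-NC and 483, 544 and 524 in si-GPD1L. The lowest si-GPD1L value was still well above the highest control value. The log2 fold change was 1.56 ± 0.113 (SE, n = 3 in each group; adjusted p = 1.28e-06, edgeR's quasi-likelihood test). Parp10 and Plec, the plectin gene on the same strand, share 268 bases in the deposited coordinates. Plec had up to 16709 counts in a library and changed by 0.62 ± 0.17 on the log2 scale (SE; adjusted p = 0.0514). How reads in the shared stretch were assigned was not tested.

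Parp11, a small PARP that has been tied to the turnover of the type I interferon receptor, stood apart from the other interferon-linked genes. The normalized counts of Parp11 were 179.95, 170.4 and 188 in si-NC and 253, 189 and 168 in si-GPD1L. Replicate 1 was the highest si-GPD1L library, and replicate 3 lay below the whole control range. The log2 fold change was 0.17, with a 95% confidence interval from -0.15 to 0.50 (n = 3 in each group; adjusted p = 0.537, edgeR's quasi-likelihood test), and without si-GPD1L replicate 1 it was -0.011. This interval leaves room for a change of up to 1.41-fold upward or to 0.899 times the control, but does not reach the 2.49-fold that is the lower bound for Parp10.

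Parp1, a DNA-break sensor of the family, had normalized counts of 1178, 1232 and 1241 in si-NC and 1254, 1258 and 1239 in si-GPD1L. Parp2, which shares that role, had 387, 408 and 398 in si-NC and 445, 389.9 and 413 in si-GPD1L. In both genes the groups overlapped. The fold change was 1.03 (95% confidence interval 0.930 to 1.14) for Parp1 and 1.05 (0.912 to 1.198) for Parp2, with adjusted p-values of 0.776 and 0.734 from edgeR's quasi-likelihood test.

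Relative to the control mean, the rise in single si-GPD1L libraries ran from 6.48 to 7.62-fold for Dtx3l, 5.33 to 6.19-fold for Parp14 and 5.07 to 5.87-fold for Parp9. For Parp12 it ran from 4.31 to 5.18-fold and for Parp10 from 2.76 to 3.11-fold. Replicate 2 was the highest si-GPD1L library for all 5 of these genes. In si-GPD1L replicate 3, the library whose Gpd1l count was within the control range, Parp9 was 5.15-fold, Dtx3l 7.197-fold and Parp14 5.33-fold above the control mean. Without that library, the same 5 genes were past both thresholds. An exact permutation test of each of the 5 genes gave a two-sided p = 0.10, the smallest that 3 libraries against 3 allow.

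Levels of different genes were compared as TPM, which corrects counts for the length of the gene and for depth. In si-NC the DNA-repair genes were the highest, with Parp1 at 44.1 ± 3.32 TPM and Parp2 at 26.2 ± 1.86 TPM (SD, n = 3). Parp9 at 11.4 ± 1.02 TPM and Parp14 at 9.62 ± 0.870 TPM followed and overlapped with each other, as did Parp12 at 7.42 ± 0.309 TPM and Parp10 at 6.75 ± 1.18 TPM. Parp11 at 3.33 ± 0.250 TPM and Dtx3l at 2.25 ± 0.0832 TPM were the lowest. The order was different in si-GPD1L. Parp9 at 64.6 ± 5.61 TPM and Parp14 at 57.3 ± 5.20 TPM, which overlapped with each other, lay above Parp1 at 47.9 ± 0.471 TPM in every library. Parp12 reached 37.3 ± 3.50 TPM and lay above Parp2 at 28.96 ± 1.75 TPM, and Parp10 reached 21.0 ± 1.39 TPM. Dtx3l reached 16.98 ± 1.48 TPM and passed Parp11, which was last at 3.99 ± 0.849 TPM. The place of Dtx3l depends on the gene length of 7519 bases in the deposited table, which is longer than each of its 3 listed transcripts, of 2113, 2764 and 4755 bases.

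The 15 PARP family genes found in the table, without Dtx3l, summed to between 305 and 359 TPM in si-NC and between 521 and 562 TPM in si-GPD1L. The 5 interferon-linked PARPs made up 11.4%, 11.5% and 11.4% of this sum in si-NC replicates 1 to 3, but 33.8%, 35.8% and 32.3% in si-GPD1L replicates 1 to 3. The share of Parp1 and Parp2 ran from 20.5% to 21.1% in si-NC, against 13.5% to 15.1% in si-GPD1L, while their own levels did not pass the test. The make-up of the PARP transcripts thus differed between the groups, with no overlap of the libraries in either share.

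**Figure D2:**
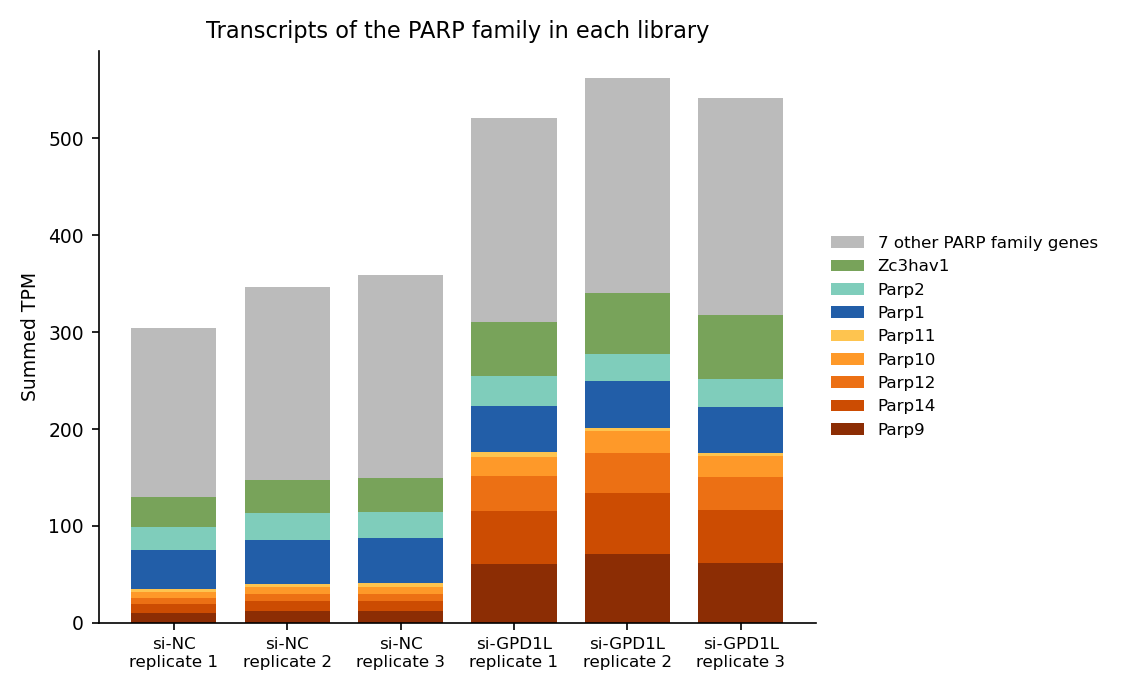
Summed TPM of the 15 PARP family genes in each of the 6 libraries, with each gene's part stacked from 0. The orange and brown parts, Parp9, Parp14, Parp12, Parp10 and Parp11, take 11.4% to 11.5% of the bar in the si-NC libraries and 32.3% to 35.8% in the si-GPD1L libraries, and the blue Parp1 part is of similar height throughout.

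In the deposited coordinates, which follow the rn6 build listed in the submitters' processing notes, Parp9 spans chr11:67724071-67758027 (minus strand) and Dtx3l spans chr11:67758093-67772428 (plus strand). They face away from each other with 65 bases between them. Parp14 lies 333 kb further on, from 68105442 to 68137509 on the plus strand. The other members lie elsewhere, with Parp10 on chromosome 7, Parp11 and Parp12 on chromosome 4, Parp1 on chromosome 13 and Parp2 on chromosome 15. Within 200 kb of the span from Parp9 to Parp14 the table holds 15 other genes, and 7 of them had enough reads to be tested. None of the 7 passed an adjusted p under 0.05 in edgeR's quasi-likelihood test in either direction, and none had an unadjusted p under 0.05. Of all genes tested, 6.36% passed that adjusted p in either direction.

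The nearest tested genes outside the span were Hspbap1, with a log2 fold change of 0.051 ± 0.13 (SE, adjusted p = 0.863, edgeR's quasi-likelihood test), and Kpna1, which encodes a nuclear import receptor, with -0.12 ± 0.105 (adjusted p = 0.548). Kpna1 had 1090.4 normalized counts in si-NC and 1004 in si-GPD1L, more than Parp9 had in the control. The log2 fold changes of the others were -0.088 for Dirc2, -0.21 for Wdr5b, -0.075 for Fam162a and -0.23 for Ccdc58. LOC100911928, which lies between Dtx3l and Parp14, had 25.1 normalized counts in si-NC and a log2 fold change of 0.17. Only the 3 interferon-linked genes passed the test in this stretch of chromosome 11.

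**Figure D3:**
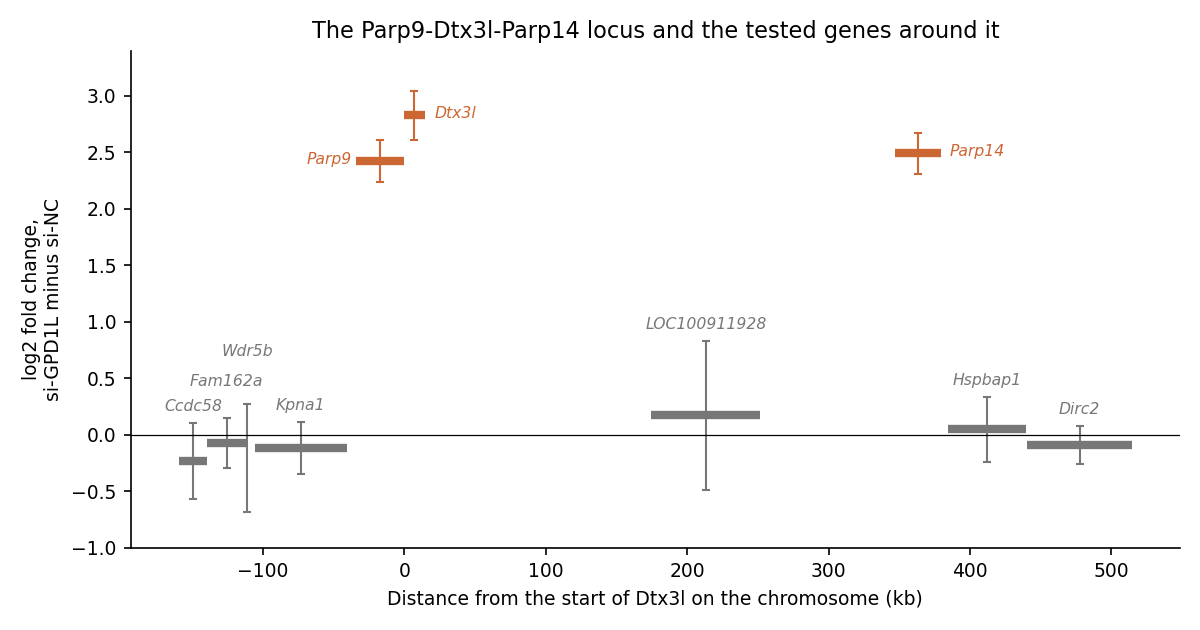
log2 fold change (vertical axis) of the tested genes around Parp9, Dtx3l and Parp14, placed by their distance in kb from the start of Dtx3l (horizontal axis). Each thick bar spans a gene and each thin line is the 95% confidence interval; Parp9, Dtx3l and Parp14 (orange) lie between 2.42 and 2.83, and the 7 other genes (grey) lie between -0.23 and 0.17.

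Promoter windows of 250 bases before to 50 bases after each annotated start were taken from RefSeq on the GRCr8 build, and 7 of the 8 genes had one, all but Parp10. They were searched on both strands for the core of the interferon-stimulated response element, GAAANNGAAA, where N is any base. A match was present in the windows of Dtx3l, Parp14 and Parp12 and in none of those of Parp9, Parp11, Parp1 and Parp2, and 3.92% of all 33469 windows in the table held at least 1. The following stretches run from 100 bases before to 25 bases after the start, 5′ to 3′ on the strand of the gene, with the matching letters in capitals. They are shown because they are the places in which these 3 rising genes carry the motif, with the window listed for Parp9 beside them. They lie at chr11:78320125-78320249 (plus strand) for Dtx3l, chr11:78408034-78408158 (plus strand) for Parp14, chr4:68850517-68850641 (minus strand) for Parp12 and chr11:78318987-78319111 (minus strand) for Parp9.
Dtx3l: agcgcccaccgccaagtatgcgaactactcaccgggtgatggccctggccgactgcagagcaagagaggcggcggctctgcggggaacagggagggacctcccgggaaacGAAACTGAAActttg
Parp14: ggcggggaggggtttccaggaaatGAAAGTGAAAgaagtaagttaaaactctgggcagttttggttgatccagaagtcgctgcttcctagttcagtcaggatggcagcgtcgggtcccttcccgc
Parp12: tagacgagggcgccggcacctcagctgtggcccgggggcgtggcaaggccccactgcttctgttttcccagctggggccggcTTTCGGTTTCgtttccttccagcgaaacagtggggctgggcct
Parp9: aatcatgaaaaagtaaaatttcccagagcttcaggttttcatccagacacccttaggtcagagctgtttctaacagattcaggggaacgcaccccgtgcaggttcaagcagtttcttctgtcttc

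Counted from the start as base 1, the match lies at bases 11 to 20 in Dtx3l, -76 to -67 in Parp14 and -18 to -9 in Parp12, where it is read on the opposite strand. In the GRCr8 annotation the window of Dtx3l lies within the span annotated for Parp9, so the motif printed for Dtx3l also falls inside the Parp9 gene. Parp9 is read on the minus strand, so the window searched for it starts at a point within its annotated span and not at the outer 5′ end. The lack of a match in Parp9 holds for that internal window alone, and the outer end was not searched. A second motif, the core of the gamma-activated sequence (TTCNNNGAA), was found in Parp14 alone among the 7 genes, at bases -87 to -79 and so beside its first motif, and in 8.87% of all windows. Neither motif overlaps the other there. Parp4, whose log2 fold change was 0.22 ± 0.068 (SE, adjusted p = 0.0802), was the single gene with an interferon motif among 8 windows of the rest of the family. The window of Zc3hav1, a family gene with a log2 fold change of 0.81, held no such motif. Those of the interferon signalling factors Stat2 and Irf9, with log2 fold changes of 2.18 and 1.81, held none either. Whether the motif goes with the rise was not tested.

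The rise of the neighbours Parp9 and Dtx3l was compared within each library. The log2 ratio of Parp9 to Dtx3l within a library, from which any factor per library cancels, was 1.53, 1.69 and 1.70 in si-NC and 1.28, 1.26 and 1.16 in si-GPD1L. The ratio was lower in every si-GPD1L library than in any control library. The difference was -0.40 (95% confidence interval -0.59 to -0.22; exact permutation test, two-sided p = 0.10, 0.15 after adjustment over 3 ratios), where no smaller p is possible with 3 libraries against 3. The log2 ratio of Parp14 to Dtx3l differed by -0.33 (-0.58 to -0.086; exact permutation p = 0.10, adjusted 0.15). That of Parp1 to Parp2 differed by -0.023 (-0.18 to 0.14; exact permutation p = 0.70, adjusted 0.70), with overlapping groups.

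**Figure D4:**
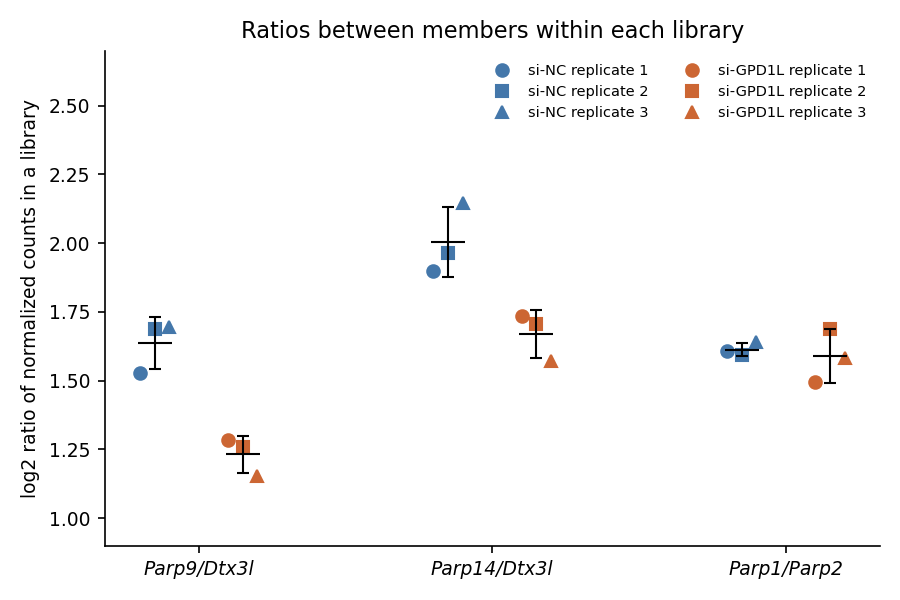
log2 ratio of the normalized counts of 2 genes within each library, for 3 ratios, with si-NC in blue, si-GPD1L in orange and the replicate number given by the shape. The dash is the mean and the bars are the SD of 3 libraries; the ratios to Dtx3l are lower in the 3 si-GPD1L libraries than in the 3 si-NC libraries, and those of Parp1 to Parp2 overlap.

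The deposited transcript table lists 21 transcripts of the 8 genes, of which 20 could be tested among 37822 transcripts. A total of 14 rose with an adjusted p under 0.05, against 3.58% of all transcripts tested, and none fell. These were all 8 transcripts of Parp9 (log2 fold change 2.41 to 2.42), 2 of Dtx3l (2.77 in both), the single ones of Parp10 (1.54) and Parp14 (2.47) and both of Parp12 (2.18 and 2.23). None of the 3 transcripts of Parp11 (0.11 to 0.15), the 2 of Parp2 (0.050 and 0.091) or the 1 of Parp1 (0.020) passed. The counts of the Parp9 transcripts summed to 7.53 to 7.64 times the gene count in a library, so they share most of their reads and are not separate measurements. Those of Parp12 summed to 1.83 to 1.91 times and those of Dtx3l to 1.19 to 1.34 times the gene count, so these share reads too. The 14 transcripts that rose belong to 5 genes and do not count as 14 separate results. The third Dtx3l transcript, of 2764 bases, had 0 counts in each si-NC library and 1, 1 and 3 counts in si-GPD1L, at or under the 3 counts that a count of 0 allows.

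The rest of the PARP family was described from a list of 9 genes, of which 8 were in the table and all 8 were tested. With an adjusted p under 0.05, which 4.03% of all genes tested reached in this direction, Zc3hav1 alone rose. It encodes the zinc-finger antiviral protein, a family member without catalytic activity that binds viral RNA. Zc3hav1 rose from 1454 to 2551 normalized counts, a log2 fold change of 0.81 ± 0.074 (SE, n = 3 in each group; adjusted p = 1.59e-05, edgeR's quasi-likelihood test), short of the fold change threshold. Parp4 and Parp3 followed, with log2 fold changes of 0.22 and 0.18 and adjusted p-values of 0.0802 and 0.175. The median of the 8 genes was 0.035. Parp6, Parp8, Parp16, Tiparp and Tnks lay between -0.13 and 0.036.

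Of the Deltex ligases tested, Dtx3l rose and no other passed the test in edgeR. The other 3 tested, of 4 listed, had log2 fold changes of -0.28 ± 0.093 for Dtx4, -0.21 ± 0.077 for Dtx3 and -0.021 ± 0.094 for Dtx2 (SE; adjusted p = 0.103, 0.122 and 0.922, edgeR's quasi-likelihood test). Dtx4 and Dtx3 had an unadjusted p under 0.05, both with lower values in si-GPD1L, and Dtx4 had an adjusted p of 0.0203 without si-NC replicate 1. At least 3223 of the 14852 genes tested had an unadjusted p under 0.05.

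Genes that read or remove ADP-ribose did not pass the test in any case, with 9 tested, a median log2 fold change of -0.0030 and a range from -0.42 for Macrod1, a hydrolase of single ADP-ribose units, to 0.14 for Nudt16. Rnf146, a ubiquitin ligase that recognizes poly(ADP-ribose), had -0.204 ± 0.107 (SE; adjusted p = 0.287). Parg, the main enzyme that degrades the chains, had 0.0071 ± 0.075. None of the 9 had an unadjusted p under 0.05 in edgeR's quasi-likelihood test. The share of all genes tested with an adjusted p under 0.05 was 6.36% in either direction, so few calls would fall in 9 genes.

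Among genes for the supply and use of NAD+, the source of the ADP-ribose that PARPs transfer, none of 11 tested passed, and 6.36% of all genes tested had an adjusted p under 0.05 in either direction. The smallest p-values were those of Nnmt, which methylates nicotinamide (log2 fold change 0.16 ± 0.071, adjusted p = 0.211), and Nampt, the rate-limiting enzyme of NAD+ salvage (0.18 ± 0.081, adjusted p = 0.216). These 2 genes had an unadjusted p under 0.05. By p-value Nampt ranked 3223 among the 14852 genes tested, so at least that many genes reached this level. The median of the 11 genes was 0.084.

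The partners of Parp1 and Parp2 in strand-break repair, from Hpf1 and Xrcc1 to the DNA ligases Lig1 and Lig3, gave no call among 11 genes tested, and none of the 11 had an unadjusted p under 0.05 in edgeR's quasi-likelihood test. As 6.36% of all genes tested had an adjusted p under 0.05 in either direction, few calls would fall in a list of 11. The median of the 11 was 0.0069 on the log2 scale, and values ran from -0.30 for Hpf1 to 0.20 ± 0.109 for Fen1, a flap endonuclease (SE; adjusted p = 0.292, edgeR's quasi-likelihood test). Apex1, the abasic-site endonuclease, had -0.16 ± 0.077 (adjusted p = 0.259). DESeq2 also gave no call in this list, in that of NAD+ genes or in that of ADP-ribose readers and hydrolases.

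**Figure D5:**
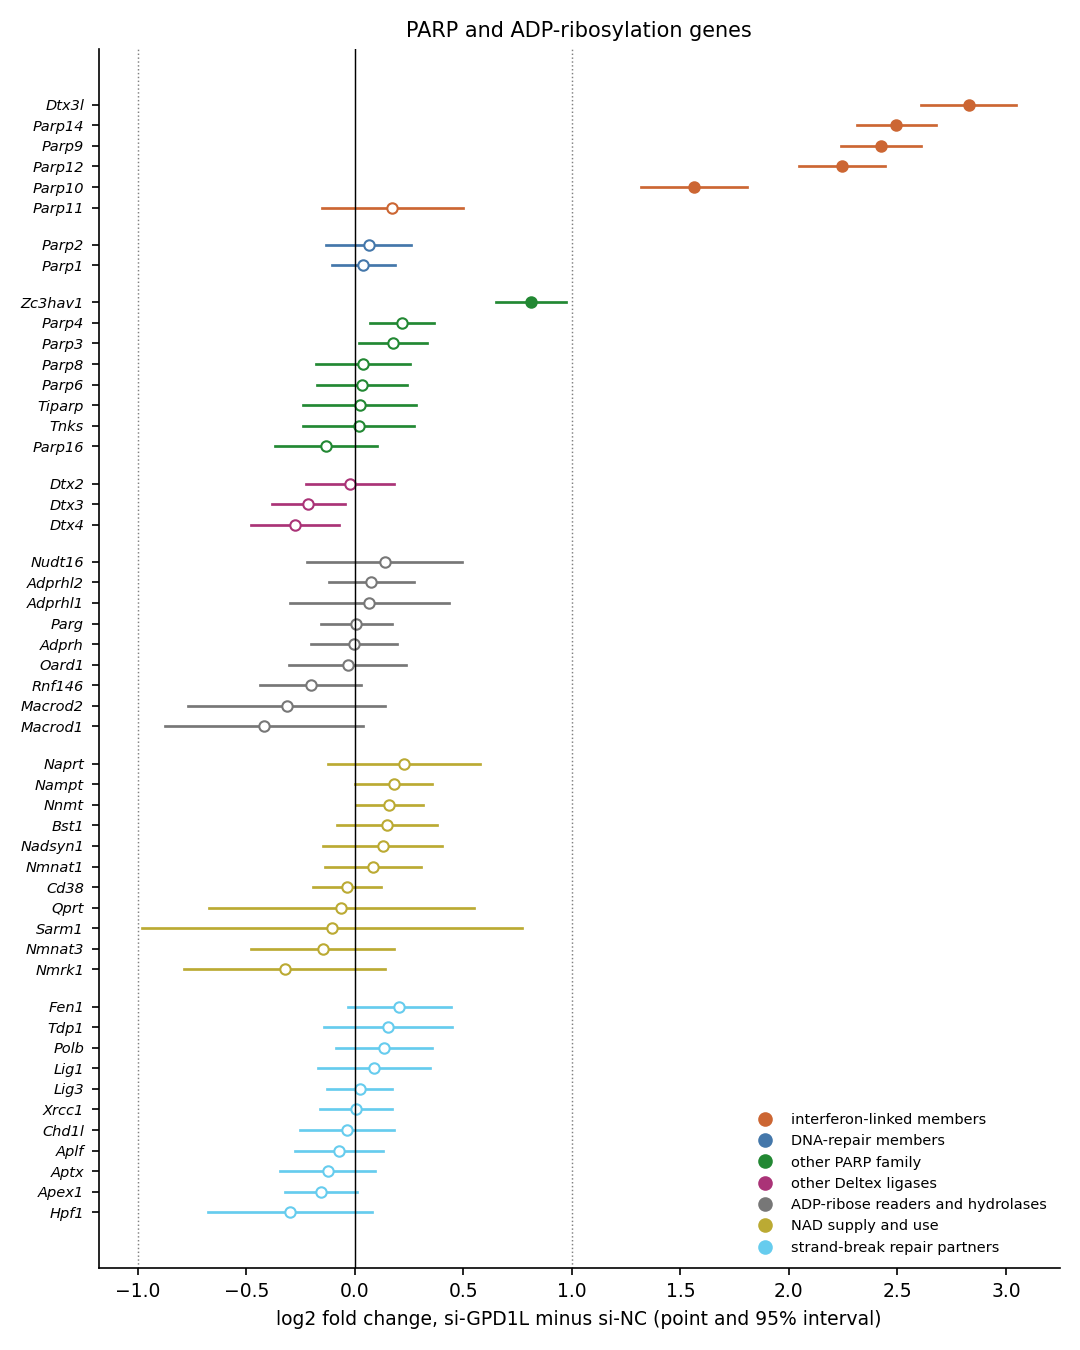
log2 fold change of si-GPD1L over si-NC with its 95% confidence interval for the 8 genes and for the tested genes of the other lists, grouped by color. Filled points have an adjusted p under 0.05 and dotted lines mark the fold change threshold of 1; outside the first group, Zc3hav1 at 0.81 is the single filled point.

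The genes whose pattern over the 6 libraries was most like that of a member were found by the root mean square difference in log2 normalized count after subtracting each gene's si-NC mean, among 10948 genes with a symbol and an average level of 50 normalized counts or more. For Parp9 the nearest was Parp14, at 0.071, followed by Lgals9, which encodes galectin-9, at 0.086 and Tap1, the peptide transporter of antigen presentation, at 0.095. For Parp14 they were Parp9 at 0.071, the double-stranded RNA sensor Ifih1 at 0.13 and the immunoproteasome subunit Psmb8 at 0.13. For Dtx3l they were the immunity-related GTPase Irgm at 0.11, Ifih1 at 0.12 and RT1-T24-4, a gene of the rat MHC class I region with near copies, at 0.13. Parp9 was the eighth gene by likeness to Dtx3l, at 0.28. The measure includes the size of the rise and describes these 6 libraries.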

How the data were processed

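The authors deposited raw counts per gene (40154 genes) and per transcript (55760 transcripts) for 6 libraries, with TPM values that the authors made from them. Per the labels, the submitters' processing notes list bcl2fastq, HISAT2 2.1.0, HTSeq 0.12.4 and the build rn6; the strand setting is not given in the sources used here. The deposited comparison of the groups (signal, fold change, p-value and q-value) and the GO and KEGG tables hold the authors' own findings and were not used.

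Counts were filtered with filterByExpr, normalized by TMM and compared with edgeR 4.0.16 (glmQLFit and glmQLFTest, R 4.3.3) over all 14852 genes, with Benjamini-Hochberg adjustment. The fit was first tested on simulated data. Standard errors are the log2 fold change divided by the square root of F. TPM was used only to compare levels between genes and, as log2(TPM + 0.1), in limma 3.58.1 as an alternative. DESeq2 1.42.0 was another alternative. The genes and lists were chosen with earlier results of these data known. Named were Gpd1l, the 8 genes, up to 4 genes past the threshold of each list or otherwise the 2 with the smallest p, tested genes within 200 kb of the Parp9 to Parp14 span, and the 3 genes most like Parp9, Dtx3l and Parp14. A few more, chosen after their values were seen, are named for an overlap, a range or a role. The listed genes Tnks2 and Adprs were not matched by symbol. No 2 libraries within a group looked like repeats of 1 library (chi-square per degree of freedom 4.14 to 30.3). Figures were drawn with matplotlib 3.10.9. Some genes of the lists are not reported here.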

Additional observations from a re-analysis of the deposited data

How the results depend on the processing

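Parp9, Dtx3l, Parp10, Parp12 and Parp14 were past both thresholds under each of the 12 alternatives that refitted all genes (DESeq2's size factors, upper-quartile normalization, DESeq2's Wald test, no filter beyond 1 count, at least 10 counts in every library, the replicate block, and each library left out in turn), and over those, limma on TPM and summed transcript counts their log2 fold changes ran from 1.46 to 2.89. Parp1, Parp2 and Parp11 were past the adjusted p in none of their 14 alternatives; for Parp11 the value was -0.011 to 0.29 over the fits without 1 library and for the ratio of Parp1 to Parp2 -0.073 to 0.024, the sign turning without si-GPD1L replicate 1 in both, and the cause was not tested. The number of genes with an adjusted p under 0.05 was 945, 1929 with no filter beyond 1 count, and 361 to 1531 over the fits without 1 library (1531, 550 and 1451 without si-NC replicates 1, 2 and 3, and 366, 361 and 591 without si-GPD1L replicates 1, 2 and 3), so the background share of this call is not fixed. Dtx4 alone gave the other Deltex ligases 1 call with no filter beyond 1 count, and 0 to 1 over the fits without 1 library. The other PARP genes had 1 to 2 calls over the fits without 1 library. Zc3hav1 was called in each of these fits. Parp4 was added only without si-NC replicate 1 (adjusted p = 0.0440, edgeR's quasi-likelihood test).

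Samples with the same replicate number did not deviate together (correlations 0.041, -0.0037 and 0.047 over 11883 genes). With the replicate number as a block, 223 genes were past both thresholds and 921 had an adjusted p under 0.05, the log2 fold change was 2.42 for Parp9 and 2.82 for Dtx3l, and no call on the 8 genes changed. A count of 0 allows up to 3 counts in a library. Intervals cover these libraries only.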
